A study of Penicillium oxalicum with 15 samples.

Results

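In strain EU2101 of Penicillium oxalicum, 92 of the 9512 genes listed in the deposited files were lower on the carbon source WB_RS than on both WB and WB plus AV while differing less than 2-fold, with 1 FPKM added to each mean, between the mutants MuPOX03016 and MuKu70. They were chosen by their measured values, expressed as FPKM (fragments scaled by transcript length and by library size, with an unlisted gene taken as 0). For each gene the group means, each plus 1 FPKM, had to be at least 2-fold higher on WB and on WB plus AV than on WB_RS, the WB mean had to reach 10 FPKM, and all 3 WB_RS libraries had to lie below all 6 others of EU2101. The ratio MuPOX03016/MuKu70, again of means plus 1 FPKM, had to lie above 0.5 and below 2. The added 1 FPKM keeps in genes with low levels in the mutants, such as POX02336 at 0 FPKM in both. POX02376, at 2.74 FPKM in MuKu70 and 6.16 FPKM in MuPOX03016, was also kept. FPKM ratios given below are likewise of means plus 1 FPKM. POX02740, which met the whole rule, was left out by name. The fold limits alone were met by 238 genes, by 208 with the WB minimum and by 115 with the separation of libraries. Of those 115 genes, 8 had a mutant ratio of 2 or above and 14 of 0.5 or below. The fall on WB_RS is thus how the genes were picked, and their WB_RS values are given as a description without a test.

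The series measured RNA from mycelium of this plant-cell-wall-degrading filamentous fungus in solid-state culture, where the fungus grows on moist particles without free liquid. EU2101 was grown on each of WB, WB plus AV and WB_RS, and strains MuKu70 and MuPOX03016 were grown on the source that the labels call WR in the growth field, the same entry that the EU2101 libraries titled WB_RS carry, with 3 libraries in each of the 5 groups. The labels do not spell out WB, AV (written WA in the growth field) or RS, so the abbreviations are kept. No mutant was grown on WB or on WB plus AV, and the labels say neither how the mutants were made nor whether replicates were separate cultures, so the spread behind each p-value is that between these libraries and may be technical only. Each culture held 10 g of its carbon source wetted by 20 mL of salt solution and was kept still for 5 days at 28 °C.

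Filamentous fungi adjust their transcription to the food they grow on. Readily used sugars hold back, through carbon catabolite repression, genes for the breakdown of more complex polymers, while soluble fragments released from a polymer can act as inducers that switch genes on. In a solid substrate the particles are support and food at once, so a change of substrate alters the sugars, the proteins and the structure that the mycelium meets. Ku70 takes part in joining broken DNA ends, and its loss is widely used in fungi to make targeted gene deletion easier. The files pair no identifier with a gene name, and 0 of the 9512 identifiers matched the reference table of 9964 genes, so the members are given by identifier without a function.

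Library totals ran from 1782848 to 3414915 estimated counts in EU2101 and from 6609605 to 7335888 in the mutants, and 84 of the 92 members were listed in all 15 libraries. WB replicate 1 stood apart from WB replicates 2 and 3 across all genes, with a chi-square per degree of freedom of 56.5 against replicate 3, where replicates 2 and 3 differed at 10.6. POX03016 fell in the strain that carries its name, from 105.1 ± 29.4 FPKM in MuKu70 to 18.8 ± 1.05 FPKM in MuPOX03016 (SD, n = 3; edgeR adjusted p = 0.0012). In bulk RNA of this kind, fewer cells that express a gene and less RNA per cell cannot be told apart.

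As a group the members read lower on WB_RS, as the rule requires, though 13 of them kept a mean of at least 100 FPKM there. Their median level was 90.0, 91.1 and 80.7 FPKM in WB replicates 1, 2 and 3, and 62.5, 84.1 and 71.2 FPKM in the replicates of WB plus AV. On WB_RS it was 22.4, 21.5 and 22.5 FPKM. Over all 9512 genes, with unlisted ones as 0, the library medians were 26.2 to 34.7 FPKM in these 9 libraries. The typical member thus stood above the typical gene on WB and WB plus AV and below it on WB_RS. The rule's minimum on WB and its fall on WB_RS favour both positions. Together the members took 3.19 ± 0.33% of the FPKM sum on WB (SD, n = 3). Their share was 2.23 ± 0.34% with AV added and 0.691 ± 0.065% on WB_RS.

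**Figure D1:**
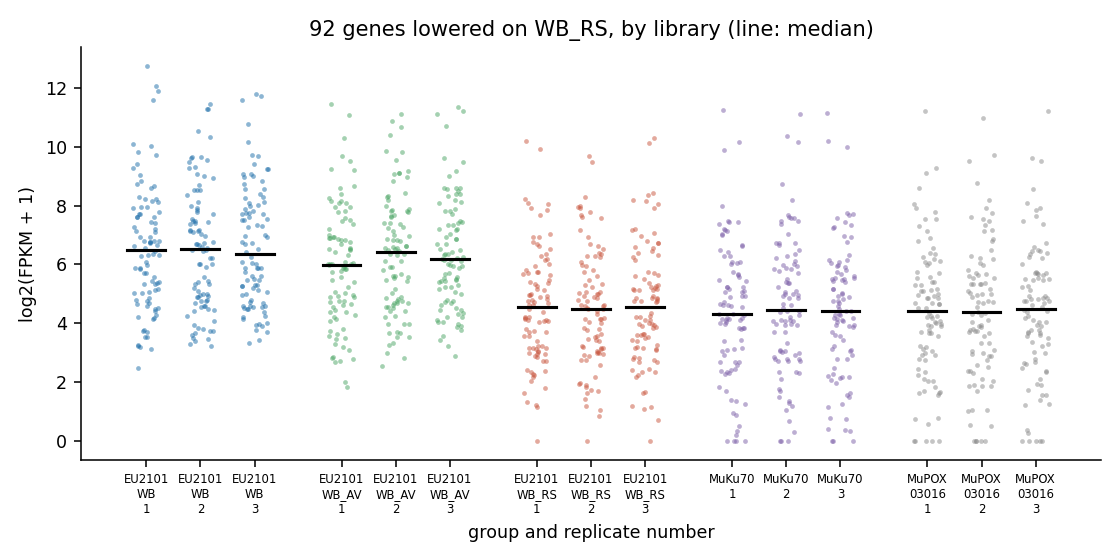
Level of each of the 92 members as log2(FPKM + 1) in each of the 15 libraries, with the group and replicate number on the x axis, 1 point per member and a black line at the library median. The WB_RS medians of 21.5 to 22.5 FPKM lie below those of WB and WB plus AV by the choice of members, and the mutant medians of 19.0 to 21.6 FPKM lie close to the WB_RS ones.

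The size of the fall was uneven. The ratio WB/WB_RS ran from 2.03 to 50.3 with a median of 3.14, and WB plus AV/WB_RS from 2.01 to 22.7 with a median of 2.55. Of the members, 42 were between 2-fold and 3-fold lower than on WB, 23 between 3-fold and 5-fold, 16 between 5-fold and 10-fold and 11 at least 10-fold. Just inside the 2-fold limit lay POX01502, with a lower ratio of 2.006, and POX09701, with 2.008, and just outside lay POX06865, with 1.995, and POX08508, with 1.99. At the other limits, POX09701 had a WB mean of 10.1 FPKM and POX03297, outside, 9.08 FPKM. The mutant ratio was 1.91 in POX02376 and 2.04 in POX00967, outside, and it was 0.502 in POX00155 and 0.494 in POX06862, outside.

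Levels on WB spanned a wide range. The WB means ran from 10.1 to 4301 FPKM, with quartiles at 30.6 and 245.9 FPKM, and 44 members reached 100 FPKM there against 13 on WB_RS. When all genes were ranked by WB mean, 4 members came within the first 100, and these 4 made up 46.3% of the members' FPKM sum on WB. At the other end, 14 members fell below a mean of 5 FPKM on WB_RS.

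POX02623 had the highest level on WB and also the largest WB/WB_RS ratio, 50.3. It read 6836, 2497 and 3571 FPKM in WB replicates 1, 2 and 3, then 591.6, 1361 and 1659 FPKM on WB plus AV and 72.2, 76.6 and 104.7 FPKM on WB_RS. The 3 EU2101 groups did not overlap, and the WB_RS mean of 84.5 ± 17.6 FPKM was 1.99% of the WB mean when 1 FPKM is added to each. In the mutants, replicate 2 stood above replicates 1 and 3, with 192.3 against 77.1 and 48.1 FPKM in MuKu70 and 185.7 against 81.8 and 87.2 FPKM in MuPOX03016.

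POX04214 ranked next on WB and showed the same order of groups. Its values were 4329, 2476 and 3374 FPKM on WB, 1267, 1882 and 2222 FPKM on WB plus AV and 273.7, 309.7 and 342.6 FPKM on WB_RS. Here too replicate 2 was the highest in each mutant, at 428.0 FPKM against 139.6 and 67.5 FPKM in MuKu70, and at 238.2 FPKM against 67.1 and 64.0 FPKM in MuPOX03016.

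POX07393 had the next largest WB/WB_RS ratio and the largest ratio of WB plus AV to WB_RS, 22.7, with much scatter between replicates. It stood at 21.5, 88.9 and 57.7 FPKM on WB and at 6.30, 91.5 and 24.9 FPKM on WB plus AV, so replicate 1 was the lowest in both groups. On WB_RS it was unlisted in replicate 1 and read 1.28 and 1.26 FPKM in replicates 2 and 3, which rest on 4.58 and 4.47 estimated counts.

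POX01105 and POX00122 were the members with the highest levels in MuKu70. POX01105 read 3109, 2797 and 3061 FPKM on WB, 2136, 2228 and 2593 FPKM on WB plus AV and 1166, 825.1 and 1245 FPKM on WB_RS, and it stood at 2434, 2188 and 2264 FPKM in MuKu70. Its MuKu70 libraries thus overlapped those of WB plus AV and lay above every EU2101 library on WB_RS. POX00122 read 3772, 1472 and 1742 FPKM on WB and 962.5, 708.3 and 1119 FPKM on WB_RS, against 1130, 1316 and 1165 FPKM in MuKu70. All 3 MuKu70 libraries thus lay above the WB_RS ones, but narrowly, and edgeR did not call the difference between the strains (log2 fold change 0.29, adjusted p = 0.206).

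The comparison of WB plus AV with WB was not part of the rule, although it uses the same libraries and the rule's minimum on WB favours genes that read high there. Of the 92 members, 65 had a lower mean on WB plus AV than on WB and 27 a higher one, and 12 had a ratio of the means of 0.5 or less, against 3.27% of the 7246 genes with a WB mean of at least 10 FPKM. All 3 WB plus AV libraries lay below all 3 WB libraries for 20 members, against 10.7% of the 7246 genes with a WB mean of at least 10 FPKM, and above them for 1 member, against 4.90%. The median log2 fold change was -0.35 over the 91 members tested and 0.01 over all 8079 genes tested. The rule sets no limit on the difference between WB plus AV and WB.

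**Figure D2:**
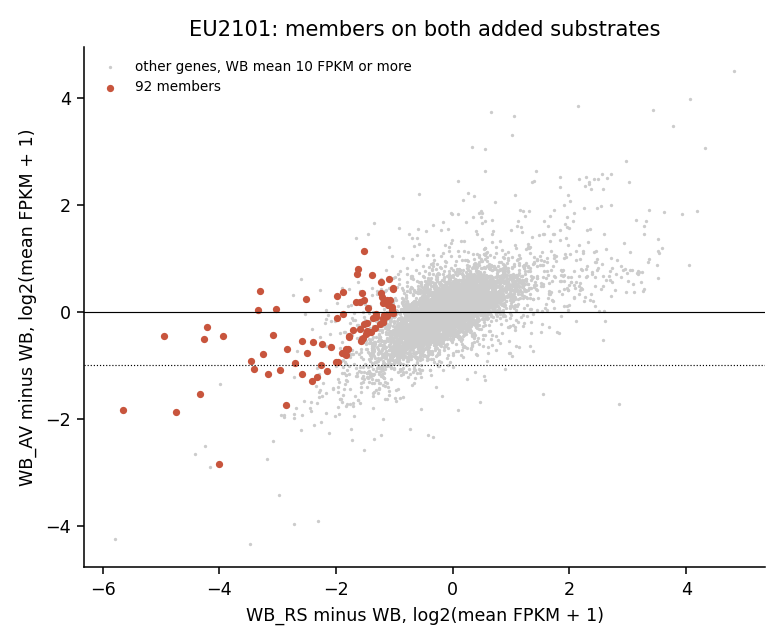
Difference on the log2(mean FPKM + 1) scale of WB_RS from WB (x axis) and of WB plus AV from WB (y axis) in EU2101, for the 92 members (red) and the other genes with a WB mean of at least 10 FPKM (grey). The members lie left of -1 by the rule, 65 of them lie below 0 on the y axis, and the dotted line marks a difference of -1.

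Few of these differences between WB plus AV and WB passed a test. In edgeR's quasi-likelihood test with Benjamini-Hochberg adjustment over all tested genes, 1 of 91 members was lower on WB plus AV and 0 were higher at adjusted p under 0.05, against 0.495% and 0.681% of all genes tested (1.18% in either direction), while 29 members had an unadjusted p under 0.05, against 17.9% of all genes. DESeq2 called 10 members lower and 1 higher, against 3.60% and 3.17% of all genes. The member called by edgeR was POX03576, at 34.7, 186.7 and 161.9 FPKM on WB, 12.9, 20.5 and 17.4 FPKM on WB plus AV and 5.58, 7.84 and 7.68 FPKM on WB_RS. Its 3 groups did not overlap, and the log2 fold change on WB plus AV was -3.04 (SE 0.59, edgeR adjusted p = 0.0432).

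Libraries with the same replicate number deviated together in this comparison, and with the replicate number as a block 9 members were lower and 1 was higher, against 3.37% and 2.95% of all genes. Without WB replicate 1, the library that stood apart, 25 members were lower and 4 higher, against 10.6% and 11.1% of all genes tested. Without WB replicate 2, WB replicate 3, WB plus AV replicate 1 or WB plus AV replicate 3 no member was called in either direction. The calls over all genes tested also fell in these 4 fits, from 55 higher and 40 lower to 3 to 6 higher and 0 to 1 lower. POX03576 was not called without any 1 of these 4 libraries, nor without WB plus AV replicate 2 (adjusted p from 0.075 to 0.177 in edgeR over these 5).

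Some members carried identifiers that follow one another, a pattern chosen after the values were seen. The 92 members held 5 such runs with 14 members in all, which were POX00121 to POX00123, POX00758 and POX00759, POX04564 to POX04566, POX05795 and POX05796, and POX07482 to POX07485. Whether these identifiers follow the order of genes on the chromosomes is not given in the sources used here. Counting also the genes that met the EU2101 part of the rule but not the mutant bounds, 19 members (20.7%) had such a gene at the next identifier, against 1.92% of the genes with a WB mean of at least 10 FPKM that did not meet the EU2101 part. POX02623 and POX04214 were among them, beside POX02624 and POX04213, which had mutant ratios of 0.295 and 0.37.

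The longest run, POX07482 to POX07485, had WB/WB_RS ratios of 19.3, 18.6, 15.4 and 8.48. POX07482 read 208.8, 177.1 and 257.7 FPKM on WB, 121.4, 165.4 and 162.7 FPKM on WB plus AV and 13.0, 7.02 and 10.5 FPKM on WB_RS. POX07483 stood at 104.4, 73.8 and 179.6 FPKM on WB and at 6.21, 2.57 and 7.59 FPKM on WB_RS, and POX07484 at 135.1, 139.8 and 225.1 FPKM on WB and at 12.1, 7.32 and 10.4 FPKM on WB_RS. POX07485 kept the most, with 217.9, 206.8 and 337.9 FPKM on WB and 39.0, 22.2 and 26.1 FPKM on WB_RS. Replicate 3 was the highest WB library and replicate 2 the lowest WB_RS library for all 4 genes. Across the 9 EU2101 libraries, neighbours in this run correlated at r of 0.986, 0.991 and 0.996 on the log2(FPKM + 1) scale, as a description of libraries that share depth and group.

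The identifiers on either side of this run had WB/WB_RS ratios of 1.51 and 0.959. POX07481 averaged 77.5 ± 23.8 FPKM on WB and 50.9 ± 2.84 FPKM on WB_RS, and POX07486 averaged 164.3 ± 92.3 FPKM and 171.3 ± 16.1 FPKM (SD, n = 3). In the mutants POX07483 and POX07484 were almost unlisted, with POX07483 listed in 1 of the 6 libraries and POX07484 in 3. The gene models behind the files differed here, because the effective length implied by count and FPKM was 1744 bp for POX07485 in EU2101 and 3840 bp in the mutants, and 1711 and 2249 bp for POX07482. Reads may therefore be divided among these genes differently in the mutant files, and the values of the single genes there are uncertain. Summed over the 4 genes, the run took 1212 ± 344 CPM (counts scaled to a common library total) on WB, 890.6 ± 178.3 CPM on WB plus AV and 89.9 ± 25.7 CPM on WB_RS, against 94.3 ± 11.1 CPM in MuKu70 and 83.8 ± 10.8 CPM in MuPOX03016 (SD, n = 3). The summed counts in the mutants thus lay within the spread of the EU2101 libraries on WB_RS, which ran from 64.5 to 116.0 CPM. CPM is not corrected for length, and POX07482 and POX07485 had longer implied lengths in the mutant files. The sums may therefore cover different sequence, and their closeness does not settle the level of the run in the mutants.

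**Figure D3:**
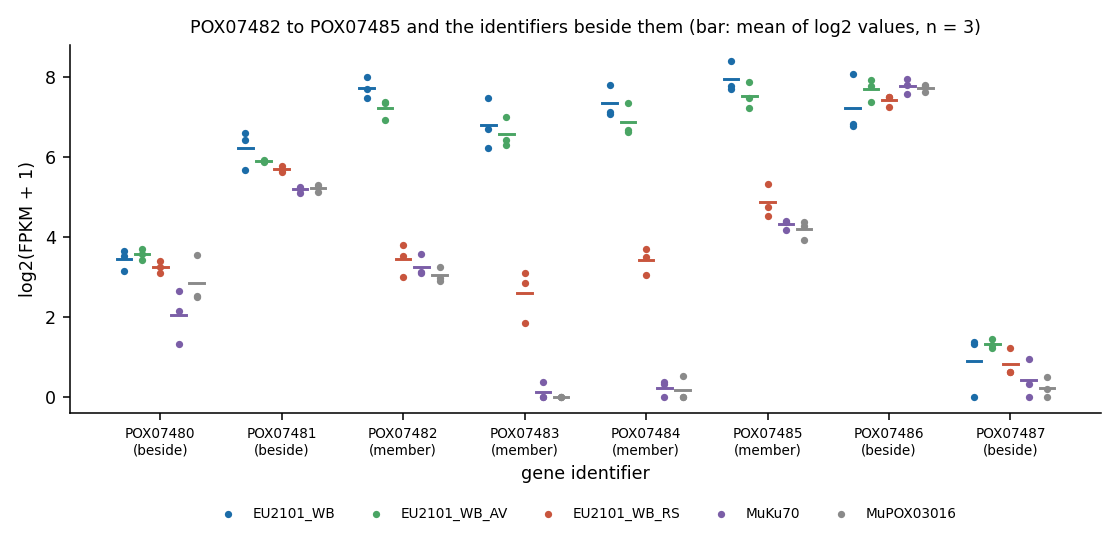
Level of POX07482 to POX07485 and of the neighbouring identifiers as log2(FPKM + 1), with 1 point per library, colours for the 5 groups and a bar at the mean of the 3 log2 values. All 4 members drop from WB and WB plus AV to WB_RS, POX07481 and POX07486 have WB/WB_RS ratios of 1.51 and 0.959, and POX07483 and POX07484 are near 0 in both mutants, where the gene models differ.

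The other runs fell less by ratio, and their levels in MuKu70 differed from run to run. POX04564 went from 204.8 ± 31.8 FPKM on WB to 27.8 ± 6.98 FPKM on WB_RS and POX04565 from 113.7 ± 29.1 to 13.0 ± 4.47 FPKM, while POX04566 kept more, from 70.8 ± 12.7 to 23.4 ± 2.18 FPKM (SD, n = 3). All 3 had the same effective length in both sets of files and were higher in MuKu70 than in EU2101 on WB_RS, at 57.7 ± 11.5, 37.9 ± 11.0 and 39.5 ± 4.57 FPKM (edgeR adjusted p = 0.00377, 0.00264 and 0.00232). The rule chose genes that read low in these WB_RS libraries, which favours a higher value in MuKu70, so these p-values are a description. In the run that holds POX00122, POX00121 went from 553.7 ± 161.2 to 241.9 ± 39.0 FPKM and POX00123 from 291.5 ± 154.9 to 100.3 ± 15.1 FPKM. The next identifier, POX00124, missed the rule narrowly, with a WB/WB_RS ratio of 1.96.

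POX00758 and POX00759 shared a pattern across replicates, since replicate 2 was the highest in each EU2101 group. POX00758 read 51.8, 93.2 and 34.1 FPKM on WB, 31.4, 126.1 and 46.7 FPKM on WB plus AV and 16.7, 26.3 and 14.6 FPKM on WB_RS. POX00759 averaged 93.4 ± 27.5 FPKM on WB, 152.3 ± 95.5 FPKM on WB plus AV and 29.4 ± 20.5 FPKM on WB_RS. Both neighbouring identifiers were expressed far more weakly, with WB means of 0.893 FPKM for POX00757 and 1.42 FPKM for POX00760.

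POX05795 and POX05796 read far lower in the mutants than in any EU2101 library. POX05796 read 297.5, 129.8 and 180.9 FPKM on WB, 179.3, 223.0 and 335.3 FPKM on WB plus AV and 77.3, 90.0 and 94.3 FPKM on WB_RS, but 7.33, 5.52 and 3.61 FPKM in MuKu70. POX05795 went from 39.2 ± 18.5 FPKM on WB to 17.9 ± 1.37 FPKM on WB_RS and 1.44 ± 0.72 FPKM in MuKu70. Summed, the pair took 40.4 ± 3.52 CPM in EU2101 on WB_RS and 2.32 ± 0.60 CPM in MuKu70 (SD, n = 3).

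MuKu70 and EU2101 were both grown on WR, and MuKu70 entered the rule only through its ratio with MuPOX03016. The EU2101 libraries on WB_RS enter both this comparison and the choice of members, which picked genes that read low in them, and with no MuKu70 library on WB analysed here, whether the members fall in that strain was not tested. Strain, sequencing and gene models differ together between the 2 sets of files and cannot be told apart. The members' median level was 19.0, 21.2 and 20.4 FPKM in MuKu70 replicates 1, 2 and 3, against 21.5 to 22.5 FPKM in EU2101 on WB_RS. Their share of the FPKM sum was higher, at 1.00 ± 0.076% in MuKu70 and 0.918 ± 0.022% in MuPOX03016, against 0.691 ± 0.065% in EU2101 on WB_RS (SD, n = 3). For 72 of the 92 members all 3 MuKu70 libraries lay below all 6 EU2101 libraries on WB and WB plus AV, against 30.0% of the 7246 genes with a WB mean of at least 10 FPKM, and for 2 members they lay above all 6, against 15.4%. The choice of genes that were high in those 6 libraries favours this count. The FPKM ratio MuKu70/EU2101 on WB_RS was between 0.5 and 2 for 56 members, 2 or above for 18 and 0.5 or below for 18, with a median of 0.886.

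The effective length was the same in both sets of files, apart from a common shift and within 20 bp, for 55 of the 75 members in which it could be measured, a share of 73.3% against 71.4% of 7290 genes. In edgeR over all genes, 34 of the 87 members tested were higher in MuKu70 and 29 lower at adjusted p under 0.05, against 31.5% and 31.3% of all 8287 genes (62.8% in either direction). Of the 20 tested members whose length differed, 16 were called higher and 0 lower in this fit, against 68.4% and 10.2% of all 2085 tested genes of differing length. Of the 54 with the same length 16 were higher and 18 lower, against 18.4% and 34.7% of 5203 genes. Of the 13 whose length was not measured 2 were higher and 11 lower, against 22.5% and 58.1% of 999 genes. Measuring a length took at least 20 counts and 5 FPKM in both sets, so genes that read low in the mutants fall into this class by definition. With only the 5203 tested genes of the same length in the fit, 18 of 54 members were higher and 12 lower, against 26.5% and 24.9% of those genes. Among the 54, the FPKM ratio had a median of 1.02, and all MuKu70 libraries lay below the 6 WB and WB plus AV libraries for 42, against 27.6% of the 4868 genes of the same length.

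The members with the largest count changes between the strains lay where length or depth limits the value. POX09591 held 1 count in the 3 EU2101 libraries on WB_RS and 380 in MuKu70, a ratio of 181 whose 95% interval by the exact Poisson method, 32.3 to 7174, covers counting error and nothing else (edgeR adjusted p = 0.000106). Its level was 0.437 ± 0.756 FPKM on WB_RS and 22.1 ± 11.4 FPKM in MuKu70, but its implied length was 216 bp in EU2101 and 840 bp in the mutants. POX08361 rose by a log2 fold change of 4.06 in counts (SE 0.16, edgeR adjusted p = 7.33e-07), although its level was 9.19 ± 1.07 FPKM on WB_RS and 15.6 ± 1.64 FPKM in MuKu70, since its implied length was 325 and 3585 bp. Both rises are favoured by the choice of members, which read low in EU2101 on WB_RS.

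POX02336 had 45 counts in EU2101 on WB_RS and none in the 6 mutant libraries, at least 10.5-fold lower in MuKu70 against a floor of 3 counts per library (edgeR adjusted p = 0.000251). A gene missing from the gene models of the mutant files cannot be told apart from one that was not expressed. POX07484, of the run described above, fell by 5.88 on the log2 scale in counts (SE 0.52, edgeR adjusted p = 3.02e-05), with the uncertainty given there.

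Among members measured as of the same length, POX01986 had the largest rise, a choice made after the values were seen. It read 57.6, 42.6 and 47.6 FPKM on WB, 37.0, 92.7 and 63.6 FPKM on WB plus AV and 1.23, 7.21 and 3.74 FPKM on WB_RS. In MuKu70 it stood at 50.2, 69.1 and 45.7 FPKM and in MuPOX03016 at 38.5, 45.7 and 44.9 FPKM, which overlaps the range of EU2101 on WB for both strains. The difference between the strains on WR was a log2 fold change of 3.74 (SE 0.41, edgeR adjusted p = 0.000106). This rise is favoured by the rule, which chose genes that read low in the EU2101 libraries on WB_RS, so the p-value is a description. The largest fall among members measured as of the same length was that of POX06754, also picked after its values were seen, with a mean of 251.1 ± 13.2 FPKM in EU2101 on WB_RS and 19.8 ± 9.25 FPKM in MuKu70 (log2 fold change -3.97, SE 0.27, edgeR adjusted p = 7.51e-06). Some members below the minimum for measuring length fell more. POX05796 was one, with a log2 fold change of -4.21 and implied lengths of 316 bp in EU2101 and 247 bp in the mutants.

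**Figure D4:**
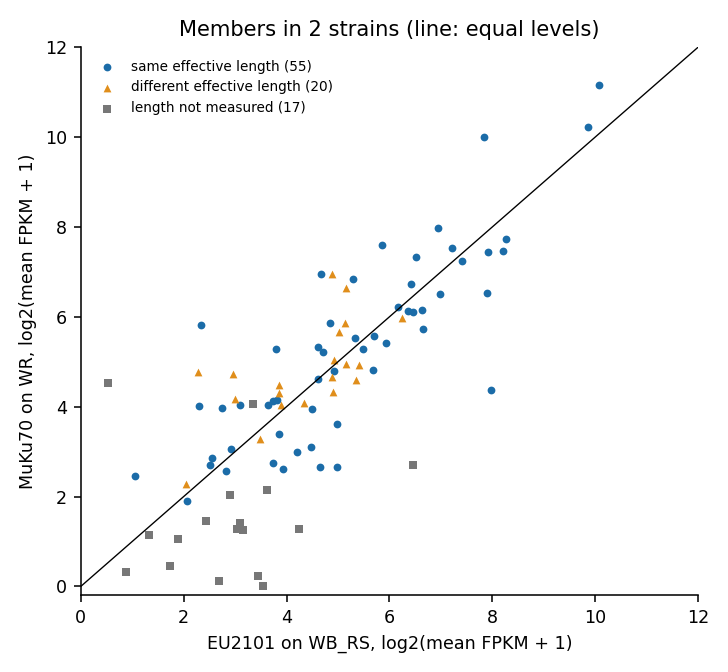
Mean level of each member in EU2101 on WB_RS (x axis) and in MuKu70 on WR (y axis), both as log2(mean FPKM + 1), by whether the effective length was the same in both sets of files (55 members), differed (20) or was not measured (17). Points lie on both sides of the line of equal levels. Those below 1 on the y axis are members whose length could not be measured, which follows largely from the minimum of 5 FPKM for that measure.

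The levels of the members in MuKu70 and in EU2101 on WB_RS correlated at r = 0.788 across the 92 members on the log2(mean FPKM + 1) scale, and those in MuKu70 and in EU2101 on WB at r = 0.684. These are descriptions over genes, which are not independent replicates, and the points share gene length within each set of files. Replicates of the members scattered more than those of other genes. The median coefficient of variation was 30.8% on WB, 29.5% on WB plus AV, 20.5% on WB_RS and 16.5% in MuKu70, against 27.5%, 21.5%, 11.4% and 9.64% over all genes with a mean of at least 10 FPKM in the group. The members include genes under that minimum, and the part of low counts in this difference was not tested.

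The rule bound the ratio MuPOX03016/MuKu70, so nothing can be read from the size of the members' change in the mutant. The ratio ran from 0.502 to 1.91 with a median of 0.933, and 57 members lay below 1 and 34 above. The balance depends on the scaling, because the median over the 7246 genes with a WB mean of at least 10 FPKM was itself at -0.12 on the log2(mean FPKM + 1) scale as deposited, and after median-ratio centring 44 members were lower and 47 higher. In edgeR, 9 of the 82 members tested were higher in MuPOX03016 and 5 lower, against 10.8% and 7.55% of all 7931 genes tested (18.4% in either direction). These counts are a description, since the ratio was bounded by the choice of members and the other genes' ratios were not.

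Among the members called by edgeR, POX03524 and POX01576 had the largest rises and POX00155 and POX08964 the largest falls. They are given here as a description, because the rule bounded the ratio that edgeR tested. POX03524 went from 4.07, 4.04 and 6.59 FPKM in MuKu70 to 8.10, 9.13 and 12.8 FPKM in MuPOX03016. POX01576 went from 5.41, 7.10 and 8.36 FPKM to 12.01, 12.57 and 15.64 FPKM. The libraries of the strains did not overlap for either gene. POX00155 went from 99.3, 74.2 and 125.0 FPKM to 64.5, 39.1 and 44.6 FPKM, and POX08964 from 32.1, 30.6 and 19.2 FPKM to 13.98, 16.13 and 14.35 FPKM, again without overlap. Among the members that were not called, POX02376 had a ratio of 1.91 and POX01347 of 0.514. Without MuKu70 replicate 1 the members called higher and lower went from 9 and 5 to 3 and 1, and none of POX03524, POX01576, POX00155 and POX08964 was called. Over all genes tested the calls also fell, from 857 and 599 to 265 and 277. Without MuPOX03016 replicate 3 the members called lower also went to 1, with 317 over all genes. Without MuKu70 replicate 2 or MuKu70 replicate 3 they went to 3, with 413 and 492 over all genes.

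Of 11 identifiers recalled as cellulase and xylanase genes of this species, 0 were among the 92 members. With 92 members among 9512 genes and a list this short that rests on recall, nothing can be read from this count. POX02740, one of the 11, met the rule and was left out by name, with 706.6 ± 295.4 FPKM on WB, 574.6 ± 303.7 FPKM on WB plus AV and 284.9 ± 64.6 FPKM on WB_RS (SD, n = 3).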

How the data were processed

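RNA from 15 libraries was compared in groups taken from the sample titles. Each file lists a gene identifier, an expected count (an estimated, unscaled read count) and an FPKM value computed by the authors, per the file headers, and unlisted genes were taken as 0. The submitters' processing notes name RSEM 1.2.12, Bowtie2 2.1.0, BWA 0.7.10-r789 and DESeq2 but give no roles. The genome build is not given in the sources used here. The members, lists and tests were chosen with earlier results of these data known.

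The rule was applied to the deposited FPKM values. Expected counts were rounded and tested under R 4.3.3 by the quasi-likelihood test of edgeR 4.0.16 (genes kept by filterByExpr, minimum count 10; TMM; Benjamini-Hochberg adjustment over all genes tested, threshold 0.05). WB plus AV against WB was fitted over the 9 EU2101 libraries and each strain comparison over its 6 libraries, and the code was tested on simulated data. Alternatives used DESeq2 1.42.0 and limma 3.58.1. Standard errors are the log2 fold change over the square root of F. Effective lengths are count divided by FPKM and by the listed total, as medians over libraries with at least 20 counts and 5 FPKM. Implied lengths printed for single genes use all libraries that list the gene. Identifiers were named by a rule: the 2 highest on WB, the 2 with the lowest WB_RS/WB ratio, the 2 highest and 2 lowest in MuKu70, those nearest the limits, and in each test up to 2 called members in each direction. Others are said to be chosen after their values were seen, and this holds for every identifier of the runs.

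All replicate pairs differed by more than sampling noise, with 7.96 as the lowest chi-square divided by its degrees of freedom. Same-numbered libraries of WB and WB plus AV deviated together from their group means (r of 0.579, 0.601 and 0.43 over 6976 genes), so the blocked fit is given beside that comparison. In the strain comparisons the correlations for replicates 1, 2 and 3 were 0.0891, 0.331 and 0.503 (MuPOX03016 and MuKu70) and 0.0621, 0.171 and 0.108 (MuKu70 and EU2101). The numbers were not taken to pair samples in the main fits, although the value for replicate 3 of MuPOX03016 and MuKu70 exceeded 0.43. Blocked fits of both strain comparisons are given among the alternatives below. Intervals and floors cover counting error only.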

Additional observations from a re-analysis of the deposited data

How the results depend on the processing

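The number of genes meeting the rule was 92 as reported and stayed between 66 and 113 under other pseudocounts, WB minima and scalings, of which 61 (pseudocount of 5 FPKM) to 92 (WB minimum of 5 FPKM) were among the 92. Leaving out 1 library gave 78 to 149 genes, with the highest number without WB_RS replicate 2, where 76 of them were among the 92. Over these settings 72 (without WB plus AV replicate 2) to 92 (without WB replicate 2) were among the 92. For WB plus AV against WB, the members called lower and higher were 1 and 0, with 10 and 1 in the DESeq2 test, 9 and 1 with a replicate block, and 0 and 0 with the WB and WB plus AV libraries alone. With those libraries alone, 0 of all 7850 genes tested were lower and 3 higher. Leaving out 1 library gave 0 to 25 lower and 0 to 4 higher, and POX03576 was not called in limma on log2(FPKM + 1) (adjusted p = 0.0515). For MuPOX03016 against MuKu70, with 9 higher and 5 lower, the replicate block gave 15 and 10 (1125 and 672 over all 7931 genes) and DESeq2 gave 11 and 8 (989 and 689). In limma on log2(FPKM + 1), where both the test and its input differ, 8 were higher and 8 lower (529 higher and 1012 lower over all 7931 genes, against 857 and 599 in edgeR). Leaving out 1 library gave 3 to 11 higher and 1 to 5 lower, with 265 to 750 and 277 to 520 over all genes tested. For MuKu70 against EU2101 on WB_RS, with 34 higher and 29 lower, the genes of the same effective length gave 18 and 12, in part because fewer members were tested, limma gave 25 and 29, and the replicate block gave 34 and 28. The direction of the log2 fold change was kept under each alternative that gave a value for the 9 genes recomputed (POX03576, POX00155, POX08964, POX01576, POX03524, POX02336, POX07484, POX08361 and POX09591), and the other named genes were not recomputed. Depth limits POX07393, POX09591 and POX02336, which rest on few counts on WB_RS, and it limits other members as well. Examples picked after their values were seen are POX09325, with 6, 2 and 3 counts in WB_RS replicates 1, 2 and 3, and POX01347, with 7, 5 and 3. On WB, POX01479 held only 9, 7 and 17 counts and POX09591 only 4, 4 and 11, so their place among the members rests on few reads. The cause of the other changes was not tested.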
